A study of Mus musculus with 23 samples.

Results

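Podxl, Slc17a8, Enah and Timp3 are 4 of the 32285 genes in the matrices. Over all barcodes of the bone marrow libraries they were nearly silent in WT and STAT5B-Y665H mice and were detected in STAT5B-Y665F mice. The WT and Y665H libraries held far more of the granulocyte-monocyte progenitor than of the neutrophil markers, and may not stand for unsorted marrow. Timp3 was not silent in WT and Y665H cells with megakaryocyte markers. The 4 are not the only such genes and were picked by symbol for their marrow levels, so all values from marrow that compare the genotypes describe how the genes were chosen and carry no test. STAT5B turns on genes after JAK kinases at cytokine receptors phosphorylate it, and Y665F and Y665H put phenylalanine or histidine in the place of 1 tyrosine in its SH2 domain. All mice were C57BL/6 per the labels (C57BL/6N in the study's methods) and 2 months old, and the groups used here were WT, STAT5B-Y665H and STAT5B-Y665F marrow with 2 libraries each, 1 spleen library of each of these genotypes, and lymph node libraries of WT (2), Y665F het (3) and Y665F homo (2). The marrow and spleen labels give no zygosity, and how many mice gave each library is not in the labels. The study's legend for its spleen single-cell figure, which also names lymph nodes, gives 1 combined sample from 3 mice per group. Its marrow cell counts were of homozygous mice, with no zygosity stated for the marrow libraries. For lymph node, nothing in the labels says whether the libraries of a group came from separate animals. An SD or p-value thus measures the spread between libraries, which may be technical.

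Each library was a droplet single-cell library, in which every RNA molecule counted carries a unique molecular identifier (UMI), and levels are given as CPM, the UMIs of a gene per 1000000 UMIs of its library. Blood cells arise in marrow from stem cells through granulocyte-monocyte, erythroid, megakaryocyte and lymphoid progenitors, and STAT5 proteins pass on signals of erythropoietin, thrombopoietin and interleukins in these lineages. Podxl encodes podocalyxin, a sialomucin of the CD34 family found on kidney podocytes, vessel lining and blood progenitors. Slc17a8 encodes VGLUT3, which loads glutamate into vesicles of neurons and inner hair cells, Enah encodes the actin regulator Mena, and Timp3 encodes an inhibitor of metalloproteinases that binds to extracellular matrix.

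On GRCm38, Podxl (ENSMUSG00000025608) lies on chromosome 6 at 31519488 to 31563981 on the minus strand, with 8 exons in the transcript Podxl-201. Slc17a8 (ENSMUSG00000019935) lies on chromosome 10 at 89574020 to 89621253 on the minus strand, with 12 exons in Slc17a8-201. Enah (ENSMUSG00000022995) lies on chromosome 1 at 181896384 to 182019990 on the minus strand, with 15 exons in Enah-201. Timp3 (ENSMUSG00000020044) lies on chromosome 10 at 86300372 to 86349506 on the plus strand, with 5 exons in Timp3-201, and 3.22 megabases separate it from Slc17a8. Timp3 sits inside Syn3, a synapsin gene on the opposite strand at 86055125 to 86498896, and exons of Syn3 overlap 1733 of the 8144 exonic bases of Timp3. Syn3 itself was at 1.34 and 0.434 CPM in WT, 0.510 and 0.462 in Y665H, and 1.13 and 0.748 in Y665F marrow, so its libraries overlapped between genotypes.

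The 250 bases before each RefSeq start are shown for the 3 of 4 genes that matched (GRCm38.p6, 5′ to 3′ on the gene's strand), because these genes were high in the same 2 libraries. Capitals mark CG pairs, whose density sets one class of promoter apart from another.
Slc17a8 start 1, chr10:89621250-89621499, minus strand: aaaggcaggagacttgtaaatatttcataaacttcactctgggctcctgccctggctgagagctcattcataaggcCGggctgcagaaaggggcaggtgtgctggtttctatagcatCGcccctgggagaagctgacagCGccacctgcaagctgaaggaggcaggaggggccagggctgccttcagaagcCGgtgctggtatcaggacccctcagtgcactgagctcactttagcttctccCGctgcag
Slc17a8 start 2, chr10:89599816-89600065, minus strand: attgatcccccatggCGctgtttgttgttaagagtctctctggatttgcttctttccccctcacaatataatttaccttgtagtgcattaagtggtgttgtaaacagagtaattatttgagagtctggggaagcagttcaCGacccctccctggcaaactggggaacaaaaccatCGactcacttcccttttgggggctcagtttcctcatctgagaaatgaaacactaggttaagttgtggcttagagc
Enah, chr1:182019981-182020230, minus strand: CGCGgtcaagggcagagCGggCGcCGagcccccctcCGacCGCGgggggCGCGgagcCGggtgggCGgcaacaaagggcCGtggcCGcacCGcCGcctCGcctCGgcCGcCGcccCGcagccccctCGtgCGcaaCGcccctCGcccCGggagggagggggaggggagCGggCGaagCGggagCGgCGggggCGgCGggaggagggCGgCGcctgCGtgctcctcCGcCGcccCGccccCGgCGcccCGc
Timp3, chr10:86300162-86300411, plus strand: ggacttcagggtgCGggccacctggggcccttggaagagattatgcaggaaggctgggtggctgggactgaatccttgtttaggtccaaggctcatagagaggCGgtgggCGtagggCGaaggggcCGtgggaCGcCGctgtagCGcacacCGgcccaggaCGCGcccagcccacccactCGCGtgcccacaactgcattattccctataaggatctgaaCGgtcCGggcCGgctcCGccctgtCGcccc
The upstream stretch of Enah held 42 CG pairs and was 84.8% G or C, against medians of 6 pairs and 52.4% over all 32851 RefSeq promoters, and 0.865% of promoters had as many pairs. Timp3 held 18 pairs (21.7% of promoters had as many), and the Slc17a8 starts held 5 and 3, near the median. Neither TTCNNNGAA, the palindrome that STAT proteins bind (in 7.02% of promoters, read on both strands), nor AGATAA, a form of the GATA motif (in 9.99%, both strands), was in any of the 4 stretches. The 4 sequences thus shared neither CG density nor one of these words. Podxl had no entry among the sequences.

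The 6 marrow libraries held 4420 to 18742 cell barcodes and 16399123 to 55768078 UMIs, with medians of 1617 to 2809 UMIs per barcode. After filters on genes, mitochondrial UMIs and doublets, 34907 barcodes of WT and Y665H and 15656 and 15910 of the Y665F libraries were kept. Library 1 of each genotype had Xist, the RNA of the inactive X chromosome, at 244 to 895 CPM, and library 2 at most 0.586, so the number follows sex and the 2 libraries of a genotype are from different animals, although the study's methods describe male mice. The lowest barcode held 500 UMIs in every library but Y665F replicate 2, where it held 1179. Y665F replicate 1 had 9.87 UMIs of T cell receptor variable segments per constant segment UMI against 0.909 to 1.97 in the other 5. Stat5b was at 26.3 and 19.3 CPM in WT, 16.6 and 16.7 in Y665H and 39.6 and 49.3 in Y665F, which does not check the labels, since UMI totals do not show a codon change. The labels and the study's methods name no sort of the marrow cells for these libraries, though its design figure names T cells and stem cells. In WT the 8 neutrophil markers summed to 39.6 to 146 CPM and the 8 hemoglobin-rich erythroid markers to 115 to 148. The 7 granulocyte-monocyte progenitor markers summed to 2167 to 2214, so progenitor RNA outweighed that of these mature cells. Whole marrow below means all barcodes of these libraries, and whether enrichment differed between genotypes was not tested.

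Podxl, the CD34 relative, had 5 and 4 UMIs in the WT libraries (0.305 and 0.145 CPM), 4 and 5 in Y665H (0.0971 and 0.193 CPM), and 839 and 608 in Y665F (15.0 and 12.3 CPM). Both Y665F libraries lay far above the other 4, which overlapped with one another. Summed over libraries, Y665F held 67.3 times the WT level (95% interval 35.4 to 148, counting error only) and 103 times the Y665H level (53.9 to 225). The 8 endothelial markers, which mark the vessel lining, summed to 182 to 201 CPM in the WT libraries, 164 to 167 CPM for Y665H and 125 to 146 CPM for Y665F, with 1 or 2 of them at 0 in each WT library, 1 in each of Y665H and none in Y665F. The sum does not stand for each marker: Tie1 was at 16.2 CPM in the lower Y665F library against at most 3.17 in WT and Y665H.

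Slc17a8, the glutamate transporter, had 6 and 2 UMIs in WT (0.366 and 0.0723 CPM), 0 and 0 in Y665H, which allow up to 0.0728 and 0.116 CPM; Y665F had 1032 and 437 UMIs (18.5 and 8.83 CPM). The Y665F libraries were again the high ones, and they also differed from each other more than for any other of the 4 genes. The summed Y665F level was 76.9 times that of WT (38.9 to 178) and, against a floor of 3 UMIs over both Y665H libraries, at least 312-fold higher than Y665H.

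Enah, the actin regulator, was the least silent of the 4, with 15 and 19 UMIs in WT (0.915 and 0.687 CPM), 30 and 39 in Y665H (0.728 and 1.502 CPM), and 602 and 371 in Y665F (10.8 and 7.499 CPM). WT and Y665H overlapped and Y665F stood above both. The summed ratios were 11.98 to WT (8.52 to 17.4) and 8.998 to Y665H (7.04 to 11.7).

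Timp3, the protease inhibitor, had 17 and 12 UMIs in WT (1.04 and 0.434 CPM), 26 and 16 in Y665H (0.631 and 0.616 CPM), and 1139 and 776 in Y665F (20.4 and 15.7 CPM). The 4 low libraries overlapped and both Y665F libraries were higher. The 10 stromal and bone markers summed to 0.976 to 2.99 CPM in the WT libraries, 0.424 to 1.36 CPM for Y665H and 1.44 to 2.67 CPM for Y665F, near 0 in all 3 genotypes, with 5 or 6 of them at 0 in each WT and Y665H library and 1 or 2 in Y665F. The summed ratios were 27.7 to WT (19.2 to 41.4) and 29.1 to Y665H (21.4 to 40.5).

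Within the libraries numbered 1 and within those numbered 2, Y665F was likewise the highest for each of the 4 genes. As background, 37.9% of the 12919 genes with at least 100 marrow UMIs had both Y665F libraries above all 4 others, so that order alone is common. Levels under 2 CPM in the 4 other libraries and over 5 in both Y665F libraries were seen for 16 genes, 0.124%, a limit set with the 4 genes in view. The other 12 were Bicdl1, Cc2d2a, Cdcp1, Chil3, Col4a1, Gimap1os, Gm4951, Lhcgr, Lrp12, Npr1, Pkn3 and Rgs7bp. Ranked by the lowest Y665F over the highest other level, each plus 1 CPM, Podxl was 5, Timp3 6, Slc17a8 8 and Enah 34 of the 12919 genes. The ranks 1 to 4 went to Socs2, a STAT5 feedback inhibitor, S100a9 and S100a8 of neutrophils, and Prg2 of eosinophil granules.

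**Figure D1:**
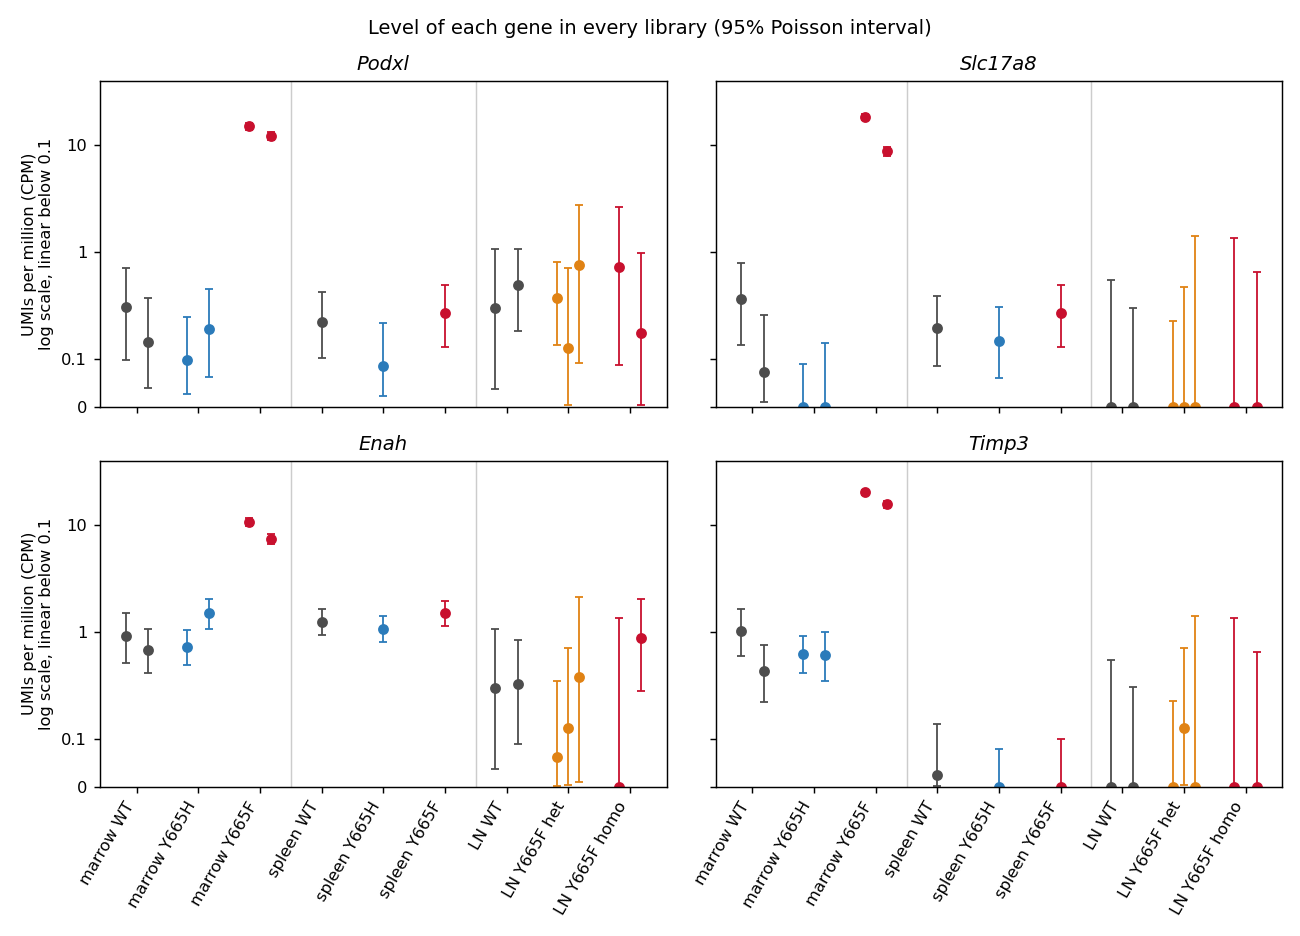
Level of each gene in all 16 libraries, in CPM on a log axis that is linear below 0.1, with 95% Poisson intervals, by tissue and genotype. In each panel the 2 marrow Y665F points (7.499 to 20.4 CPM) stand above the other 14 points, which are at 1.52 CPM or lower. Spleen points may not share a scale with those of the other tissues.

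In other tissues the Y665F libraries were not set apart. The T cell receptor variable over constant UMI ratio was 0.0273 to 0.0298 in spleen and 3.68 to 6.00 in lymph node. Spleen libraries may thus read another part of each RNA, and their CPM may not be on the scale of the other tissues. Spleen had 1 library per genotype, with no replicate check: Podxl was at 0.222 CPM in WT, 0.0847 in Y665H and 0.271 in Y665F, with intervals that overlap. Slc17a8 was at 0.198, 0.148 and 0.271 CPM and Enah at 1.26, 1.08 and 1.52 CPM in the same order, again with overlapping intervals. Timp3 had 1 UMI in WT spleen and 0 in Y665H and Y665F, which allow up to 0.0636 and 0.0813 CPM.

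Lymph node values were not used to choose the genes. Podxl had 2 and 6 UMIs in WT, 6, 1 and 2 in Y665F het and 2 and 1 in Y665F homo (0.127 to 0.763 CPM in all), and the 3 groups overlapped. Slc17a8 had 0 UMIs in all 7 libraries, which allows up to 0.186 to 1.14 CPM per library. All 7 limits lie below the lower Y665F marrow level of 8.83 CPM.

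Enah had 2 and 4 UMIs in WT lymph node, 1, 1 and 1 in het, and 0 and 5 in homo, and Timp3 had 1 UMI in 1 het library and none in the other 6. These numbers were too low for the edgeR filter, so none of the 4 genes was among the 11467 genes tested, of which 1.73% were called for homo and 0.619% for het. Called means an adjusted p under 0.05 with a log2 fold change over 1 in size. Without the filter, edgeR gave Enah a log2 fold change of 0.89 (SE 1.12, adjusted p = 0.828) in homo and -1.25 (SE 1.16, adjusted p = 0.781) in het over WT. For Podxl it gave -0.13 (SE 1.16, adjusted p = 1) and -0.20 (SE 0.89, adjusted p = 0.975). The SEs are near or above 1, so a change of 2-fold was not detectable at this depth in lymph node, while the self-test on all lymph node genes recovered 75% of simulated 2-fold changes.

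Marrow barcodes were placed in lineage gates by their marker genes: at least 2 markers of a list had to be raised, and 17 lists were used. A gate is a range cut from this score and not a cell type; between 11.6% (B lineage) and 68.4% (plasmacytoid dendritic) of the barcodes in 9 gates left their gate when 3 raised markers were needed. Gate sizes differed by genotype: the stem gate held 10.9% and 11.9% of Y665F barcodes against 2.45% to 5.08% in the other 4 libraries. The megakaryocyte gate held 3.75% and 4.96% against 1.30% to 1.80%, the granulocyte-monocyte progenitor gate 36.1% and 43.6% against 17.2% to 26.5%, and the early erythroid gate 4.41% and 9.51% against 25.02% to 41.4%. Summed marker levels moved alike, reaching 605 to 762 CPM in Y665F for the 11 stem markers (WT 279 to 370, Y665H 237 to 254) and 635 to 814 CPM for the 8 megakaryocyte markers (WT 120 to 182, Y665H 153 to 159), of which 1 was at 0 in each WT and Y665H library. With the 9 gates weighted equally, Podxl was at 12.99 and 13.1 CPM in Y665F and at most 0.201 in the others, and Timp3 at 25.2 and 21.7 against 2.09 to 2.28. Slc17a8 was at 16.4 and 8.80 CPM against at most 0.563, and Enah at 9.83 and 7.90 against 0.362 to 1.86. Gate by gate, both Y665F libraries lay above all 4 others in 9 of 9 gates for Podxl and Timp3, 8 for Slc17a8 and 6 for Enah. These values repeat the step by which the genes were chosen, and free RNA in droplets would enter every gate. The part of gate sizes in the genotype step was not tested.

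Each barcode held few UMIs of these genes. In Y665F replicates 1 and 2, 87.9% and 96.6% of Podxl-positive barcodes, 79.3% and 92.2% for Slc17a8, 91.0% and 97.3% for Enah and 77.8% and 88.4% for Timp3 held exactly 1 UMI. The most in a barcode was 10 for Timp3 and 6 for Slc17a8. A share of positive barcodes therefore depends on depth, and droplets also take up free RNA. The B lineage gate was taken as the reference, being distant from the stem and megakaryocyte lineages: there, Y665F replicates 1 and 2 had 0.444% and 1.75% of barcodes positive for Podxl, 1.04% and 2.04% for Slc17a8, 0.888% and 2.62% for Enah and 1.48% and 2.62% for Timp3, at medians of 1148 and 1787 UMIs. In WT and Y665H, 0 of 1202 B lineage barcodes held Podxl, Slc17a8 or Timp3, which allows a share of up to 0.250%, and 2 held Enah. In Y665F replicate 1 the B lineage levels of the 4 genes were 0.267 to 0.582 times their levels over all kept barcodes. In replicate 2 they were 0.651 to 1.56 times, with Enah at 12.8 CPM against 8.21 and Slc17a8 at 9.95 against 9.80. The 11 stem markers had a median ratio of 0.975 there, so this reference was not a low one in that library. In replicates 1 and 2, the 4 genes were at 0.746 to 1.08 and 0.614 to 1.39 times in the neutrophil gate, not among the 9 gates. They were at 0.153 to 0.592 and 0.684 to 0.906 times in the monocyte gate, so the reference level depends on the gate taken. Shares at or below the Y665F reference are not read as expression in a gate, and a replicate 2 share below it does not show that the gene is absent there. The B lineage gate held 343 to 676 barcodes per Y665F library, so small distances from this reference rest on few barcodes.

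Timp3 had the sharpest pattern of the 4, with its top level in the megakaryocyte gate, the lineage that makes platelets. In Y665F, 29.5% (26.3 to 32.9, exact binomial 95% interval) and 13.9% (11.2 to 17.0) of barcodes in this gate were positive, at 120 and 67.5 CPM. Both are far above the B lineage reference and above the next gate by level, basophil and mast, at 23.2 CPM ± 13.5 (SD, n = 2). In WT and Y665H the megakaryocyte gate also had the highest Timp3 level and share, with 18 of 543 barcodes positive (3.31%) at 13.2 CPM against 65 of 34907 and 0.677 CPM over all barcodes. To compare shares at 1 depth, barcodes were thinned to 1000 UMIs and shallower ones left out, which took away 3700 barcodes (23.6%) of Y665F replicate 1, none of replicate 2 and 18.1% to 28.6% of the other 4 libraries. After thinning, 9.07% and 6.54% of the Y665F megakaryocyte barcodes were positive against 1.39% and 1.17% in the B lineage gate.

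Outside that gate Timp3 levels were lower. The stem gate was at 27.2 and 18.3 CPM, the granulocyte-monocyte progenitor gate at 13.5 and 15.3 and the B lineage gate at 11.5 and 12.8 in Y665F. The early erythroid gate was lowest, at 3.14 and 6.03 CPM, with shares of 1.48% and 1.99% that do not exceed the reference.

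Among the 9 gates Podxl was highest in the megakaryocyte gate (27.2 and 18.7 CPM), the stem gate (26.2 and 18.6 CPM) and the early erythroid gate (20.8 and 15.1 CPM), and these 3 did not differ beyond the spread of the 2 libraries. Their positive shares were 9.15% and 4.70%, 6.12% and 4.09%, and 10.1% and 4.84%, each above the B lineage reference. The early erythroid barcodes were also the deepest, with medians of 5056 and 2858 UMIs against 2469 and 2150 in the stem gate. After thinning, the shares came to 2.20% and 2.52% in the megakaryocyte gate, 2.51% and 1.38% in the stem gate and 1.73% and 1.14% in the early erythroid gate, against 0.231% and 1.46% in the B lineage gate. In replicate 2 the thinned stem and early erythroid shares are thus no higher than the reference. Podxl was the only one of the 4 with an early erythroid level above its B lineage level (4.18 and 8.53 CPM) in both Y665F libraries. In the neutrophil gate, not among the 9, Podxl was at 11.7 and 18.3 CPM, so in replicate 2 that gate was above the early erythroid gate.

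Of the 9 gates, Slc17a8 was highest in the stem gate, at 47.6 and 18.1 CPM, with 9.55% (8.26 to 11.0) and 3.45% (2.65 to 4.42) of barcodes positive. By mean level the megakaryocyte gate followed at 28.8 and 9.35 CPM, the plasmacytoid dendritic gate at 17.9 and 11.8 CPM and the granulocyte-monocyte progenitor gate at 16.8 and 9.49 CPM. In replicate 2 the megakaryocyte and granulocyte-monocyte progenitor levels do not exceed that library's B lineage level of 9.95 CPM. The stem gate stood above these gates in each of the 2 libraries, though the SD of its level, 20.9 CPM around a mean of 32.8, is wider than the distance to any of them. The early erythroid gate was low in both libraries, at 2.38 and 5.17 CPM. Thinned, the stem shares were 4.35% and 1.497% against 0.926% and 1.46% in the B lineage gate.

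Enah was also highest in the stem gate, at 23.6 and 15.0 CPM with 5.58% and 3.22% of barcodes positive. The megakaryocyte gate stood at 12.4 and 8.02 CPM, the granulocyte-monocyte progenitor gate at 11.9 and 7.95, the plasmacytoid dendritic gate at 10.1 and 9.33 and the B lineage gate at 6.27 and 12.8, all within the spread of one another. In WT and Y665H its 77 positive barcodes included 45 in the early erythroid gate, where it was at 1.16 CPM. In the stem gate 0 of 1121 barcodes held it, which allows up to 0.268% of positive barcodes at that depth. This does not bound the share of cells that express it. That early erythroid level is close to the 0.933 CPM over all WT and Y665H barcodes, and 30 of its 59 UMIs came from Y665H replicate 2. In Y665F the early erythroid gate was at 2.49 and 4.74 CPM.

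The gate holding most UMIs of the 4 genes in Y665F was that of granulocyte-monocyte progenitors, with 1428, ahead of stem with 907, megakaryocyte with 718 and early erythroid with 338. These counts also follow gate size: it held 36.1% to 43.6% of Y665F barcodes, against 10.9% to 11.9% in the stem gate. By mean level the granulocyte-monocyte progenitor gate was below all kept barcodes for Podxl (11.3 against 14.4 CPM), Slc17a8 (13.2 against 14.0) and Timp3 (14.4 against 19.0). For Enah it was at 9.94 against 9.50 CPM. In this gate, 2.40% and 2.58% of Y665F barcodes held Podxl, 3.34% and 1.99% Slc17a8, 2.69% and 1.77% Enah and 2.85% and 3.08% Timp3. In replicate 2 the Slc17a8 and Enah shares do not exceed the B lineage reference of 2.04% and 2.62%. After thinning, the Timp3 shares were 1.24% and 1.60% against 1.39% and 1.17% in the B lineage gate, so that in replicate 1 Timp3 did not exceed it, and in replicate 2 Podxl, at 1.34% against 1.46%, did not either. In WT and Y665H, 2, 1, 11 and 10 of 6999 barcodes held the genes, in the same order.

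**Figure D2:**
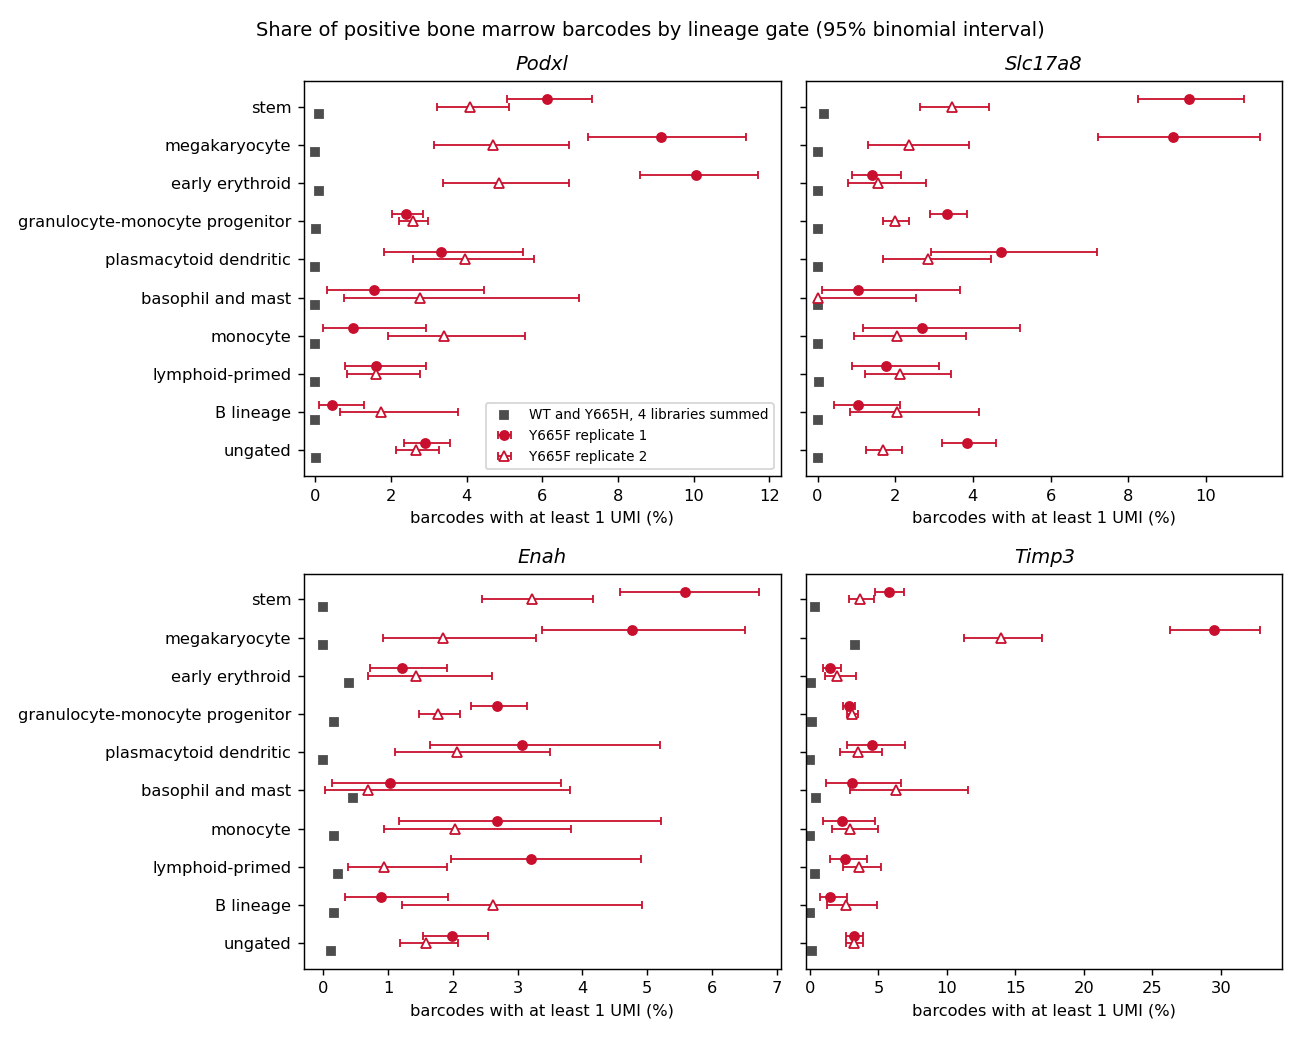
Share of kept marrow barcodes with at least 1 UMI of each gene, by lineage gate, in percent, with exact 95% binomial intervals for Y665F replicate 1 (filled circles) and replicate 2 (open triangles); squares give the 4 WT and Y665H libraries summed. Timp3 in the megakaryocyte gate reaches 29.5% and 13.9%, while Podxl, Slc17a8 and Enah stay at 10.1% or lower in every gate shown.

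The 4 genes met in the same barcodes more often than their shares within the gates give. In Y665F replicate 1, 1753 barcodes held 1 of the genes, 254 held 2, 39 held 3 and 5 held all 4, and in replicate 2 the numbers were 1432, 106, 9 and 0. In the other libraries 32 to 50 barcodes held 1 gene and at most 1 barcode held 2. Slc17a8 and Timp3 shared 93 and 27 barcodes, against 43.3 and 12.2 from the product of their shares in each gate. Over the 6 pairs the ratio of seen to computed barcodes was 1.82 to 2.79 in replicate 1 and 1.40 to 3.48 in replicate 2, highest for Slc17a8 with Enah. Positive barcodes were deeper than negative ones, with medians of 3371 and 2205 UMIs for Podxl in replicate 1 and 2370 and 2136 in replicate 2; the part of depth in these ratios was not tested.

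**Figure D3:**
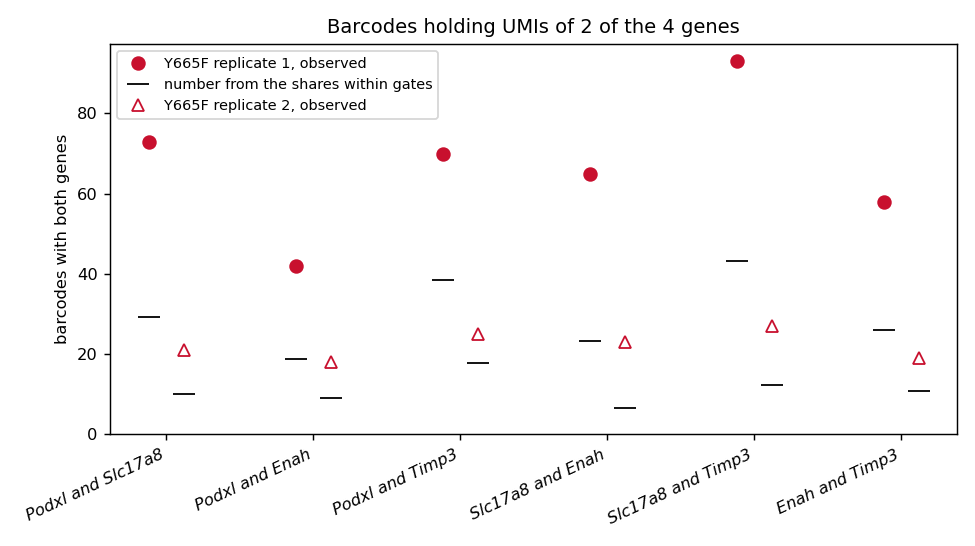
Number of kept barcodes that hold UMIs of both genes of a pair in Y665F replicate 1 (filled circles) and replicate 2 (open triangles); dashes give the number computed from the shares within gates. Every point lies above its dash, from 18 against 9.10 to 93 against 43.3 barcodes.

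Genes seen together with each of the 4 in Y665F were sought in the gate holding most of its UMIs, by the lower of the 2 libraries' log2 ratios of CPM in positive over negative barcodes. For Podxl, in granulocyte-monocyte progenitors, the top gene of 1051 was Pf4, a platelet chemokine that is also a megakaryocyte marker here, with log2 ratios of 1.51 and 0.65. Serpina3g, a protease inhibitor (0.89 and 0.47), Ppa1, a pyrophosphatase (0.40 and 0.35), Nrgn, which binds calmodulin (0.60 and 0.33), and Laptm4a, a lysosomal membrane protein (0.33 and 0.45), followed. After thinning 4 of these 5 were higher in positive barcodes of both libraries, and the exception, Laptm4a, was at -0.47 in replicate 1.

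For Slc17a8 the top gene of 876 was Hlf, a stem cell transcription factor and stem marker here, with log2 ratios of 1.39 and 0.62. Next came the kinase gene Cdk11b (0.52 and 0.64), the interferon-induced Ifitm1 (0.60 and 0.51), Msi2, an RNA-binding regulator of stem cells (0.88 and 0.50), and the cytokine receptor kinase Jak1 (0.40 and 0.54). After thinning 4 of these 5 stayed higher in both libraries, while Hlf was at 1.91 and -0.28. For Enah the top 5 of 812 were S100a6 (0.90 and 0.81), Pf4 (1.26 and 0.52), the clathrin adaptor Ap2s1 (0.36 and 0.67), Msi2 (0.62 and 0.33) and the cohesin factor Pds5a (0.31 and 0.32). Over all kept barcodes, in place of the gate, 3 of the 5 Enah genes stayed higher in positive barcodes of both libraries, and after thinning 1 did.

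For Timp3, in the megakaryocyte gate, the top 5 of 628 genes were Pf4 (0.74 and 0.68), the small GTPase gene Rap1b (0.60 and 0.77), the tetraspanin gene Cd9 (0.50 and 0.62), Tmsb4x, which holds actin monomers (0.41 and 0.46), and Rabgap1l (0.37 and 0.54). After thinning 4 of these 5 stayed higher in both libraries, while Cd9 was at 0.23 and -1.64. Over all kept barcodes of Y665F, which mix the gates, the log2 ratio of Pf4 in Timp3-positive barcodes was 3.66 and 1.82. All log2 ratios of this kind describe barcodes of 2 libraries and were not tested. A gene was ranked only with at least 50 UMIs in the positive barcodes of each library. After thinning, only Ifitm1 for Slc17a8 and Pf4 and Tmsb4x for Timp3 still had that many. The other thinned ratios rest on fewer UMIs, and thinned barcodes are part of those by which the genes were found.

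Across 71 sums of UMIs per gate and library, of at least 20 barcodes each, Podxl and Slc17a8 were each other's nearest of 12917 genes, with Pearson's r of 0.885 between log2(CPM + 1) values. These sums share libraries, depth and the genotype step by which the genes were chosen, so r is a description. Podxl was next nearest to 5730420D15Rik (0.857), Plscr2, a phospholipid scramblase gene (0.842), Rps9, a ribosomal protein gene (0.837), and the adhesion gene Ncam2 (0.828). For Slc17a8 the order was 5730420D15Rik (0.827), Ncam2 (0.823), Rps9 (0.819) and Plxdc2, a membrane protein gene (0.7995).

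Enah was nearest to Plxdc2 (0.787), Podxl (0.770), Slc17a8 (0.762), Timp3 (0.726) and Cish, a STAT5 feedback inhibitor (0.722). Genes near Timp3 included Zfand5 (0.799), Podxl (0.773), Mycn (0.767) and Col16a1 (0.763). The other members were 3 of the 5 nearest genes of Enah, but all 4 were chosen by the same genotype step, so this too is a description. Rps9, far from silent, was at 1749 and 1273 CPM in WT, 1282 and 1100 in Y665H and 3198 and 4057 in Y665F, so an abundant gene of all cells was also higher in both Y665F libraries, and what sets this step was not tested. Ribosomal protein genes have near-identical copies that make their counts uncertain. Ncam2 had no UMI in the 4 WT and Y665H libraries and was at 2.94 and 2.85 CPM in Y665F, and 5730420D15Rik was at most 0.122 CPM in the 4 and 5.36 and 3.40 in Y665F.

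Genes beside the 4 on the chromosomes were read from the whole marrow fit. Of 13 protein-coding neighbours within 250 kb, 9 were tested, 1 was called higher in Y665F than in WT and 0 lower (edgeR quasi-likelihood test), against 7.85% called higher and 8.35% called lower of all 13936 genes, so the count is near the background. The one called was Gas2l3, a cytoskeletal linker gene beside Slc17a8, at 1.63 (SE 0.30, adjusted p = 0.00138). Beside Podxl, Mkln1 had a log2 fold change of 0.47 (SE 0.23, adjusted p = 0.136), and around Timp3, Syn3 had 0.05 (SE 0.48, adjusted p = 0.951) and Fbxo7 -0.58 (SE 0.24, adjusted p = 0.0833).

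Related genes were taken from 5 lists and tested in the same fit, where 7.85% of all genes were called higher and 8.35% lower. Of the podocalyxin relatives and membrane-actin linkers, 0 of 7 tested were called in either direction, and the median log2 fold change over WT was -0.20 against 0.03 for all genes. Podxl2, the closest relative by name, had -0.20 (SE 0.50, adjusted p = 0.789), the progenitor antigen Cd34 0.54 (SE 0.23, adjusted p = 0.0780) and the linker Ezr -0.83 (SE 0.22, adjusted p = 0.0112), which is below the fold needed for a call. Of the SLC17 family, 2 of 8 had enough UMIs to be tested and neither was called: the lysosomal sialin gene Slc17a5 had -0.11 (SE 0.24, adjusted p = 0.753) and Slc17a9 -0.05 (SE 0.24, adjusted p = 0.886). The other vesicular glutamate transporters, Slc17a6 and Slc17a7, were at 0 and at most 0.0808 CPM in every marrow library.

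Of the Ena/VASP family and partners, 2 of 12 tested were called higher and 2 lower in Y665F, with a median of 0.18. Over all genes 7.85% were called higher and 8.35% lower, so these small counts are near the background. Lpp, a focal adhesion protein gene (1.42, SE 0.26, adjusted p = 0.00117), and Diaph1, an actin nucleator gene (1.11, SE 0.21, adjusted p = 0.00161), rose. Evl, a paralog of Enah (-1.01, SE 0.26, adjusted p = 0.0101), and Apbb1ip (-1.02, SE 0.24, adjusted p = 0.00603) fell, but 0 were called lower without WT replicate 2 or without the filter on low counts, and 1 was without Y665F replicate 1, without Y665F replicate 2 or with the replicate number as a block. Of the 2 higher calls, 1 was left without Y665F replicate 2. Vasp had 0.66 (SE 0.21, adjusted p = 0.0258), below the fold for a call.

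Of the TIMP family and metalloproteinases, 5 of 12 tested were called higher and 0 lower, with a median of 0.65, against 7.85% higher and 8.35% lower over all genes. Mmp9, a gelatinase of neutrophil granules (4.58, SE 0.66, adjusted p = 0.000312), Mmp8, the neutrophil collagenase (1.88, SE 0.44, adjusted p = 0.00541), Adam8 (1.57, SE 0.49, adjusted p = 0.0235), Mmp2 (1.14, SE 0.41, adjusted p = 0.0470) and Mmp25 rose. Mmp25 was at 0.0610 and 0 CPM in WT and 0.825 and 0.344 in Y665F. The 8 neutrophil markers, of which Mmp8 is 1 and none was at 0, had sums of 1491 to 3488 CPM in Y665F, 39.6 to 146 in WT and 143 to 201 in Y665H; their part in these calls was not tested. The count fell to 3 with DESeq2, to 2 without WT replicate 2, to 1 without Y665F replicate 1 and to 3 without Y665F replicate 2, where 1 gene was called lower. Mmp2 was not called with DESeq2, with its size factors or with any 1 library left out, and Mmp25 was not called without WT replicate 2. Timp2, the other inhibitor with enough UMIs, had 0.61 (SE 0.27, adjusted p = 0.0947), and Timp1 and Timp4 had too few to be tested.

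Of the STAT5 targets, 6 of 13 tested were called higher in Y665F and 1 lower, with a median of 0.995, against 7.85% higher and 8.35% lower over all genes. The feedback inhibitors Socs2 (4.19, SE 0.24, adjusted p = 7.42e-08), Cish (2.77, SE 0.26, adjusted p = 1.29e-05) and Socs3 (2.07, SE 0.36, adjusted p = 0.000892), the survival kinases Pim2 (2.01, SE 0.30, adjusted p = 0.000390) and Pim1 (1.58, SE 0.22, adjusted p = 0.000278) and the cytokine Osm (1.83, SE 0.39, adjusted p = 0.00349) rose. Lta, a lymphotoxin gene, fell by 2.31 (SE 0.71, adjusted p = 0.0228). Socs2 was at 4.88 and 4.34 CPM in WT, 2.36 and 2.19 in Y665H and 101 and 87.1 in Y665F. The number called higher was 6 or 7 when any 1 library was left out, while Lta was not called with DESeq2, without WT replicate 2 or without Y665F replicate 2.

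In Y665H against WT, 0 of the 13936 genes were called by edgeR, with 756 at an unadjusted p under 0.05 and 3 called by DESeq2, and none of the 5 lists held a called gene, also with DESeq2, without the filter, with the replicate block or with any 1 library left out. Socs2 had -0.75 (SE 0.24, adjusted p = 0.864) and Cish -0.47 (SE 0.27, adjusted p = 0.864) in that comparison, in which the WT libraries are the same as above.

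**Figure D4:**
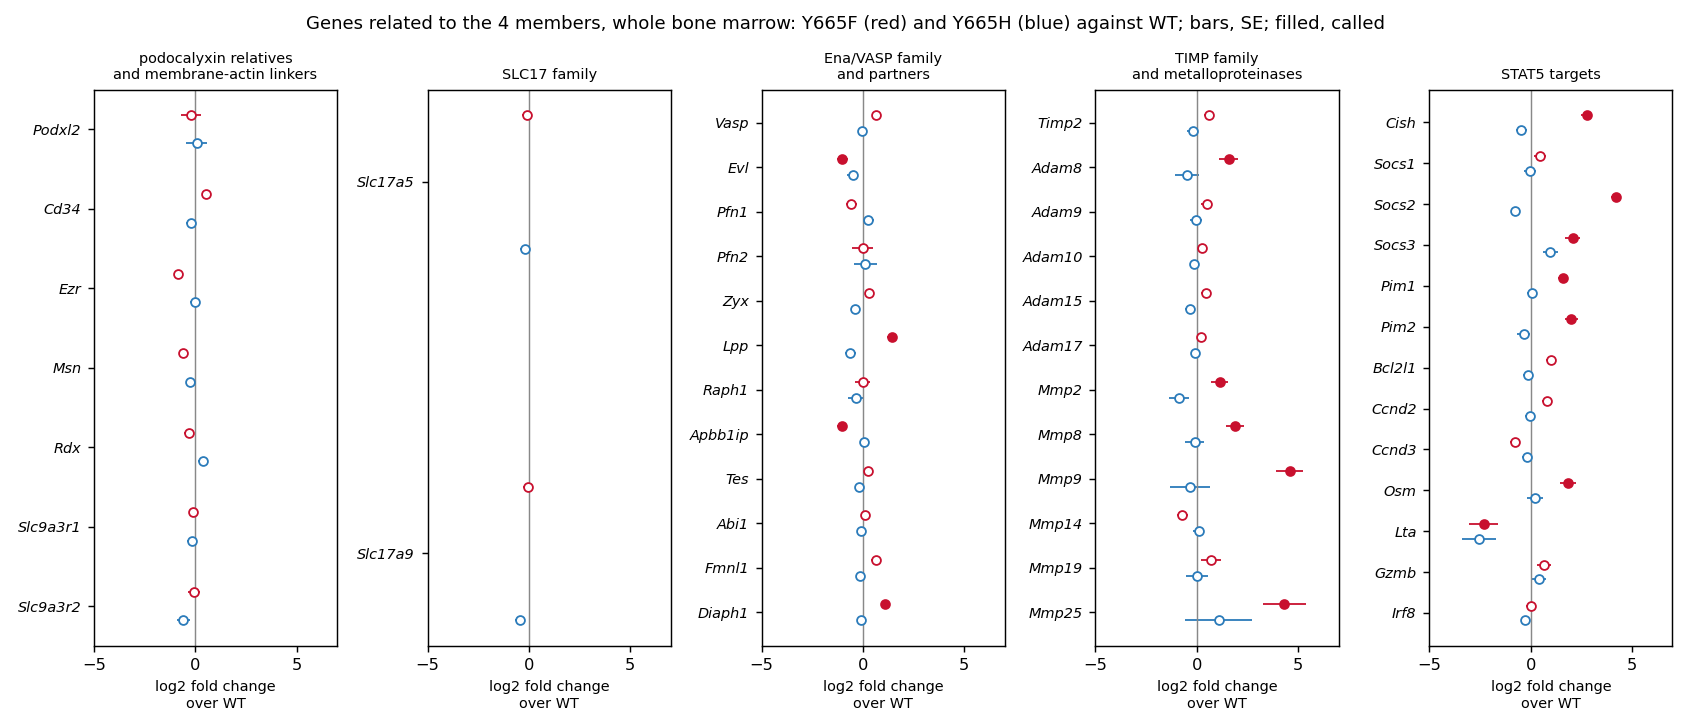
Log2 fold change over WT in whole marrow of the tested genes of 5 lists, Y665F in red and Y665H in blue, with bars of 1 SE; filled points were called. In Y665F 6 STAT5 targets and 5 metalloproteinases are filled to the right of 0, while the podocalyxin and SLC17 panels hold no filled point.

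The same lists were tested within the granulocyte-monocyte progenitor gate, in which 1.47% of 11262 genes were called higher and 2.25% lower in Y665F. Of the STAT5 targets, 5 of 12 tested were called higher and 0 lower: Socs2 (4.08, SE 0.33, adjusted p = 8.26e-05), Cish (3.40, SE 0.37, adjusted p = 0.000783), Pim2 (1.96, SE 0.44, adjusted p = 0.0342), Socs3 (1.95, SE 0.44, adjusted p = 0.0342) and Pim1 (1.41, SE 0.34, adjusted p = 0.0399). The count was 2 without Y665H replicate 1, without Y665H replicate 2 or without Y665F replicate 1, and 3 without Y665F replicate 2. No gene of the other 4 lists was called there: 0 of 6 podocalyxin relatives, 0 of 2 SLC17 genes, 0 of 11 Ena/VASP genes and 0 of 7 of the TIMP and metalloproteinase list were. Of the Ena/VASP list, 1 gene was called higher with DESeq2 or without WT replicate 2, and 2 without WT replicate 1, without the filter on low counts or with 3 raised markers. In the stem gate, where 0.670% of 7169 genes were called higher and 1.74% lower, 2 of 9 tested STAT5 targets were called higher and 0 lower. For Y665H in the granulocyte-monocyte progenitor gate, edgeR called 0 genes, with 439 at an unadjusted p under 0.05, and DESeq2 called 0, but edgeR called 20 without the filter and 1368 without WT replicate 2, where 1 gene of the Ena/VASP list and 1 STAT5 target were called higher and 1 STAT5 target lower.

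In lymph node of Y665F homo mice, 0 of 14 STAT5 targets were called higher and 1 lower, which was Irf8, a myeloid and B cell transcription factor (-1.21, SE 0.22, adjusted p = 0.0199). Socs2 had 1.21 (SE 0.30, adjusted p = 0.0604) and Pim1 0.98 (SE 0.19, adjusted p = 0.0266), short of the threshold in p or in fold. In het mice 0 of 14 were called in either direction, with Socs2 at 0.32 (SE 0.27, adjusted p = 0.661). Over all lymph node genes tested, 1.73% were called in homo and 0.619% in het. The call for Irf8 was lost without WT replicate 1 (-0.85), without homo replicate 1 (-1.35) and without homo replicate 2 (-1.06). In homo, 1 STAT5 target was called higher with DESeq2, without the filter, without WT replicate 2 or without het replicate 3, and in het 1 was called lower without WT replicate 2. No other list held a called gene in lymph node, except 3 calls in the TIMP and metalloproteinase list without the filter on low counts, 2 lower in homo and 1 higher in het.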

How the data were processed

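Single-cell RNA from 2-month-old mice was counted per barcode; the deposited matrices hold raw UMI counts, which the authors made with Cell Ranger (5.0.0 for lymph node and 6.0.0 for spleen and marrow per the file headers; labels: 5.0, mm10, 3′ kit; the methods name a 5′ kit). The 7 T cell receptor tables were not used. T cell receptor variable over constant UMIs set the spleen libraries apart from those of lymph node and marrow, so 1 kit for all libraries is doubtful. Here all barcodes were summed per library for CPM. For gates, barcodes under 200 genes or over 10% mitochondrial UMIs were left out, and the top 0.8% per 1000 barcodes by similarity to simulated doublets were removed. A marker was raised with at least 1 UMI and a level above its mean over the 6 marrow libraries; ties were ungated. Summed counts were fitted across all genes (edgeR 4.0.16 quasi-likelihood, TMM, filterByExpr, Benjamini-Hochberg; DESeq2 1.42.0 as alternative; R 4.3.3, Python 3.11.15) for 6 comparisons, checked on simulated data (93% of 4-fold and 51% of 2-fold changes recovered in marrow, 96% and 18% in the granulocyte-monocyte progenitor gate). Members and lists were chosen with earlier results of these data known. Named genes are the members, the list genes, the 5 nearest by correlation and the 5 top co-detected genes per member, Stat5a, Stat5b and Syn3; 1 gene that this rule names is not reported here, and neighbours and the 12 other low genes were named after their values were seen. Intervals are exact 95% Poisson or binomial, for counting error only, at 2621583 to 55768078 UMIs per library. Between marrow libraries, 1.54% to 2.89% of the smaller library's barcodes were shared.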

Additional observations from a re-analysis of the deposited data

How the results depend on the processing

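All marrow levels of the 4 genes kept Y665F highest over kept barcodes, over barcodes of at least 1179 UMIs and with TMM-scaled totals. Thinning to 1000 UMIs lowered the mean Y665F shares to 1.95% (stem), 2.36% (megakaryocyte) and 1.41% (granulocyte-monocyte progenitor) for Podxl, to 1.60% for Slc17a8 and 1.21% for Enah in the granulocyte-monocyte progenitor gate and 2.19% for Enah in the stem gate, and to 2.01%, 7.80% and 1.42% for Timp3 in the stem, megakaryocyte and granulocyte-monocyte progenitor gates; fewer UMIs per barcode follow from its construction. With 3 raised markers the granulocyte-monocyte progenitor shares were 2.16% (Podxl) and 2.69% (Timp3). In spleen, thinned levels were 0 for Podxl in WT and Y665H and Slc17a8 in Y665H and 0.148 CPM for Timp3 in WT, which was 0 over kept barcodes; spleen doublets were not scored. Of the 5 genes found with each member, those higher in positive barcodes of both libraries were 4 for Podxl, 4 for Slc17a8, 1 for Enah and 4 for Timp3 after thinning, and 4, 5, 3 and 5 over all kept barcodes. Most of the thinned ratios rest on too few UMIs to be ranked.

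Counts of called genes moved more, and the cause was not tested. For Y665H in marrow, 0 became 3 with DESeq2, 53 without a filter, 13 with the replicate block and 2 to 61 with 1 library left out. For Y665F in marrow, 2258 became 1399 to 2707 with 1 library left out. In the granulocyte-monocyte progenitor gate, 419 for Y665F became 964 without a filter, 913 with 3 raised markers, 173 in the stem gate (chosen after seeing the data) and 13 (without Y665H replicate 2) to 1971 (without WT replicate 1) with 1 library left out; 0 for Y665H became 20 without a filter and 0 to 1368 (without WT replicate 2) with 1 left out. In lymph node, 198 for homo became 477 without a filter and 53 to 332 with 1 library left out, and 71 for het became 288, 25 with the replicate block and 23 to 203. The labels tie the replicate numbers to no shared litter, batch or day, though in marrow the number follows sex; deviations of libraries with the same number correlated at 0.310, 0.0418 and 0.305 between marrow genotypes and at -0.160, -0.0662 and 0.0491 in lymph node. With the replicate block, 2406 genes were called for Y665F in marrow, 573 in the gate and 137 for homo lymph node.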
